A study of Mus musculus with 6 samples.

Results

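The genes described here encode the proteins of the cytosolic ribosome, together with the paralogs that carry related names. They were taken from the deposited expression table by gene symbol: every symbol made of Rpl or Rps and a number with an optional suffix, the stalk proteins Rplp0, Rplp1 and Rplp2, and Rpsa, with pseudogene names left out. The rule found 83 of the 32973 rows of the table, of which 77 are core ribosomal protein genes (46 of the large subunit and 31 of the small subunit) and 6 are paralogs (Rpl3l, Rpl7l1, Rpl10l, Rpl22l1, Rpl39l and Rps27l). Measured values played no part in the choice.

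The libraries come from primary mouse muscle stem cells, sorted from skeletal muscle by flow cytometry and grown for 3 days on collagen in F10 medium with 20% fetal bovine serum and 5 ng/ml basic fibroblast growth factor (bFGF). The 3 control libraries (Ctrl) have the genotype Med23 flox/flox, and the 3 knockout libraries (Med23KO) have the genotype Med23 flox/flox::Pax7CreERT2, in which a tamoxifen-dependent Cre is driven from Pax7, a gene of muscle stem cells. The Med23 protein belongs to Mediator, through which transcription factors act on RNA polymerase II. The Cre allele is present only in the knockout group, so an effect of Cre and an effect of Med23 loss cannot be told apart. The labels give both groups no treatment, and do not say whether the 3 libraries of a group are separate animals or cultures, nor give the animals' ages. The p-values therefore measure how these libraries vary, and that variation may be technical.

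Cytosolic ribosomal proteins assemble with ribosomal RNA into a small subunit, which decodes the messenger RNA, and a large subunit, which forms the peptide bond. Because each protein is needed in a fixed ratio to the others, their genes are expressed together and are among the most abundant transcripts of growing cells. Most of their mRNAs belong to the TOP class (5′ terminal oligopyrimidine): the transcript starts with C followed by a run of pyrimidines, through which LARP1 and the kinase complex mTORC1 control translation. Some positions of the ribosome can be filled by a paralog. Rpl3l replaces Rpl3 in mature striated muscle, Rpl10l and Rpl39l are best known from the testis, Rpl22l1 is the paralog of Rpl22, Rps27l is a p53-inducible relative of Rps27, and Rpl7l1 resembles Rpl7 and takes part in assembly of the large subunit.

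The start regions of 8 genes are shown because they illustrate the shared start sequence and the paralogs and copies that the values below turn on. Each window runs from 10 bases before the annotated first transcribed base to the 20th base of the transcript, 5′ to 3′ on the gene's strand, from RefSeq on GRCm38.p6. Capitals mark the longest run of C and T of at least 5 bases, and the first of them where runs are equally long. In Rps27rt the capitals lie before the annotated start, and an equally long run in lower case begins at it.
Rps6 (chr4:86857348-86857377, minus strand): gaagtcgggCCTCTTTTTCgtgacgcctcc
Rplp2 (chr7:141447641-141447670, plus strand): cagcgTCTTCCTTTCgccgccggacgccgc
Rps26 (chr10:128626487-128626516, minus strand): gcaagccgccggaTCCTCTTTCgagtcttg
Rpl27a (chr7:109519185-109519214, plus strand): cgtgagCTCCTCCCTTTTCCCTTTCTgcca
Rpl22l1 (chr3:28805498-28805527, plus strand): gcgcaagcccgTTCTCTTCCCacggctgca
Rpl7l1 (chr17:46782637-46782666, minus strand): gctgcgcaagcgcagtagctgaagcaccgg
Rps27 (chr3:90213629-90213658, minus strand): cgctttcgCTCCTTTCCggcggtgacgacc
Rps27rt (chr9:114982720-114982749, minus strand): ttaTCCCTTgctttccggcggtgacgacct
In Rps6, Rplp2, Rps27 and Rps27rt the annotated first base is a C followed by pyrimidines only, whereas in Rps26, Rpl27a and Rpl22l1 the annotated first base is not a C although a run lies at or near it. Rpl7l1 has no such run in its window.

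RefSeq promoter windows, from 250 bases before to 50 after each annotated start, were matched for 63 of the 83 genes, 57 of them core genes. A gene was counted if any of its annotated starts held the motif. A C at the annotated first base followed by 4 pyrimidines was present in 13 of 57 core genes (22.8%), against 3.13% of the 8723 tested genes with a window and 3.01% of all 27025 genes with one. A looser measure, C followed by 7 pyrimidines within 20 bases of the start, was chosen after the data had been seen and was met by 28 of 57 core genes (49.1%) and 15.9% of tested genes. The ETS-type sequence CCGGAAG, searched on both strands, was present in 24 of 57 core genes (42.1%) and 21.3% of tested genes. The YY1-type sequence ATGGCGG on both strands was present in 15.8% of core genes and 10.02% of tested genes, and the E-box CACGTG in 10.5% and 12.3%. TATAAA on the transcribed strand, starting 40 to 20 bases before the start, was present in 0 of 57 core genes and 1.32% of tested genes. These matches describe the letters of the windows and are not measured binding sites.

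Med23 itself was measured first as a check of the labels. It was listed at 10.4, 11.7 and 10.2 FPKM (fragments per kilobase of transcript, scaled to the mapped fragments of the library) in Ctrl libraries 1 to 3 and at 5.10, 5.86 and 4.23 in the Med23KO libraries, and the groups did not overlap. It fell by 0.96 (SE 0.133, limma adjusted p = 0.0197) as the difference of mean log2(FPKM + 1), the measure behind all fold changes reported here. With any library but Med23KO 3 left out its limma adjusted p was 0.0580 to 0.108. The sum of all FPKM values ran from 697886 to 746973 in Ctrl and from 599738 to 675095 in Med23KO, and read depth is not given in the sources used here. A single RNA, Rmrp, took 231442 ± 7321 FPKM in Ctrl and 188043 ± 16214 in Med23KO (SD, n = 3), and it was lower in every Med23KO library (limma adjusted p = 0.255). Among the alternative limma fits only median scaling brought the adjusted p of Rmrp under 0.05 (0.0492), and the fit without the filter gave 0.972. Between 12017 and 12465 genes were above 1 FPKM in a library. Summed markers of muscle stem cells were 1057 to 1651 FPKM in Ctrl and 857 to 1429 in Med23KO. Most of this sum was Myod1 (948 ± 235 FPKM in Ctrl and 787 ± 213 in Med23KO, SD, n = 3). Of the 7 tested markers 4 had log2 fold changes above 0 and 3 below, against 45.1% and 54.9% of all tested genes. Those of differentiating muscle cells were 189 to 254 and 398 to 426 FPKM, and limma called 4 of 13 tested higher in Med23KO (Tnnc1, Mef2c, Mymx and Actc1) and 0 lower, against 1.49% and 1.42% of all tested genes. Each of the 4 lost its call in fits without some single library (limma adjusted p up to 0.128, 0.128, 0.153 and 0.190). Fibro-adipogenic markers summed to 153 to 207 and 211 to 324 FPKM (0 of 6 called in either direction). Most of that sum was Col3a1 (161 ± 21.9 and 242 ± 52.6 FPKM, SD, n = 3). All 6 tested fibro-adipogenic markers had log2 fold changes above 0, against 45.1% of all tested genes. Endothelial markers summed to 4.65 to 8.48 and 4.16 to 6.71 FPKM, and leukocyte markers to 1.61 to 3.10 and 2.01 to 3.17 FPKM. No marker was at 0 in all libraries.

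Core ribosomal protein genes were among the most abundant transcripts in both groups. Of the 100 genes with the highest mean FPKM, 39 were members of the set. Summed over the set, they amounted to 71179 to 83504 FPKM in Ctrl and 64162 to 73832 FPKM in Med23KO, which is 15.0% to 16.5% and 15.0% to 15.5% of all FPKM once Rmrp is left out. Of the 83 genes, 79 passed the filter of a mean of at least 1 FPKM: all 46 large-subunit core genes, 30 of the 31 small-subunit core genes and 3 paralogs. The tested core genes comprised 30 with a mean above 1000 FPKM, 42 between 300 and 1000, and 4 below 300. Within Ctrl the median coefficient of variation of a core gene was 8.59%. The small-subunit sum divided by the large-subunit sum was 0.722 ± 0.00717 in Ctrl and 0.723 ± 0.00903 in Med23KO (SD, n = 3).

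**Figure D1:**
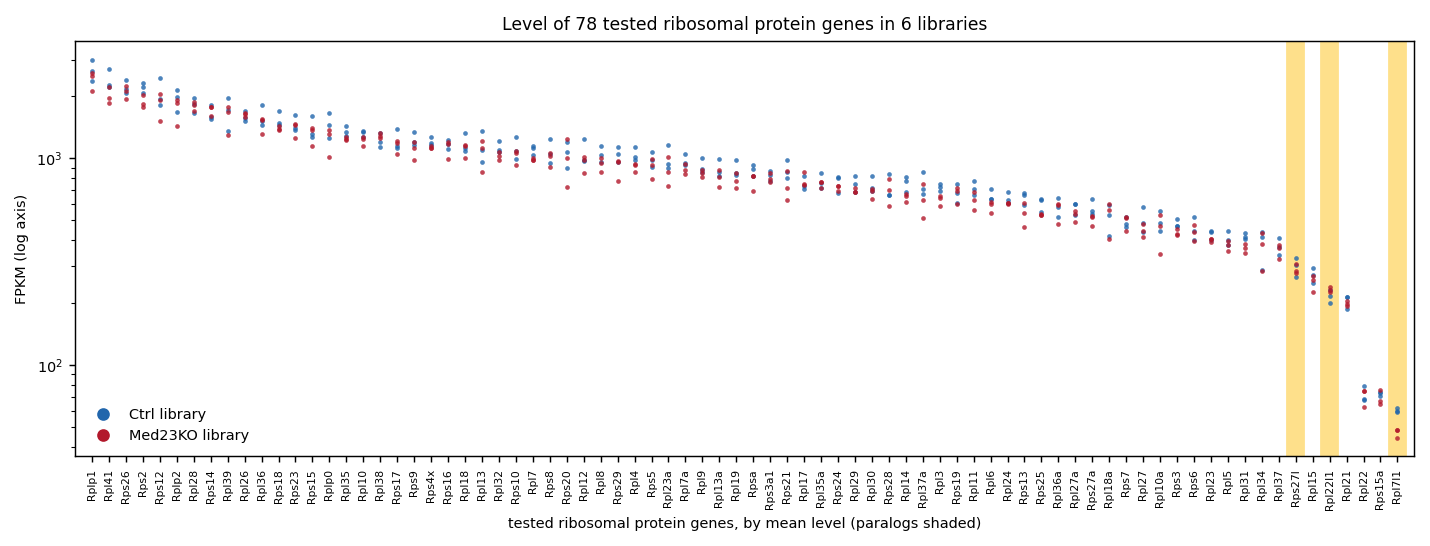
FPKM (log axis) of 78 tested genes in each of the 6 libraries, ordered by mean level, with Ctrl libraries in blue, Med23KO libraries in red and paralogs shaded. Levels run from 2537 FPKM for Rplp1 to 53.6 FPKM for Rpl7l1, and Rpl22 lies below its paralog Rpl22l1 in all 6 libraries.

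The highest levels belonged to a stalk protein, to Rpl41 and to small-subunit genes. Rplp1, one of the acidic proteins of the large-subunit stalk that recruits elongation factors, was listed at 3004, 2655 and 2358 FPKM in Ctrl and 2583, 2516 and 2107 in Med23KO. Rpl41, which encodes a very short basic protein, was at 2696, 2252 and 2210.4 FPKM in Ctrl and 2217, 1967 and 1852 in Med23KO. In both genes the highest of the 6 libraries was Ctrl 1, the lowest was Med23KO 3, and the groups overlapped. Rps26, which lies at the mRNA exit of the small subunit, was at 2387, 2064 and 2170.3 FPKM in Ctrl and 2238, 2111 and 1927 in Med23KO. Rps2, which lies near the mRNA entry of the small subunit, was at 2327, 2213 and 2065 FPKM in Ctrl and 2033, 1840.0 and 1763 in Med23KO, and its groups did not overlap.

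The lowest core genes were far below these. Rps27 was listed at 0.0584, 0.0651 and 0.161 FPKM in Ctrl and 0.0486, 0.0593 and 0.115 in Med23KO, and is taken up again with its identical copy. Rps15a was at 73.7, 70.4 and 72.7 FPKM in Ctrl and 64.3, 75.4 and 66.7 in Med23KO, and Rpl22 at 79.2, 67.7 and 68.4 in Ctrl and 75.002, 74.9 and 62.6 in Med23KO. Rpl21 was at 212, 186 and 213 FPKM in Ctrl and 197, 203 and 193 in Med23KO. Each of the last 3 overlapped between the groups.

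The comparison of Med23KO with Ctrl asks whether the loss of Med23 changes the expression of these genes. No ribosomal protein gene passed the test: of the 79 tested, 0 were higher and 0 lower at a limma adjusted p under 0.05, where 1.49% of the 12336 tested genes were called higher (184) and 1.42% lower (175), or 2.91% in either direction. In simulated data made from these libraries the fit recovered 95% of 4-fold, 73% of 2-fold and 0% of 1.5-fold changes. The changed genes were drawn from a wide range of levels, and changes as small as those of the members were not simulated. The absence of calls therefore does not show that these genes did not differ. At an unadjusted limma p under 0.05 there were 3 members, among them Rpl7l1 and Rps2, all with lower values in Med23KO, against 10.9% of all tested genes lower and 8.84% higher. The authors' deposited table, made with Cuffdiff, also called 0 members, where it called 8.61% of 13123 tested rows higher and 7.04% lower. Of the limma calls over all tested genes 51.3% were higher in Med23KO. That share was 63.9% after median scaling, 75.7% after scaling to the FPKM sum without Rmrp and 81.4% after scaling to the median core ribosomal protein gene, with 0 members called under each. Library weights and a replicate term did change the number of members called, as given below.

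The fold changes of the core genes lay close together and slightly below 0. The median of the 76 log2 fold changes was -0.12 with a standard deviation across genes of 0.078, quartiles of -0.17 and -0.07, and a range from -0.27 to 0.08. Over all tested genes the median was -0.03 and the standard deviation 0.353. Values were below 0 in 70 of 76 tested core genes, and above 0 in 6, against 54.9% and 45.1% of all tested genes. The large subunit (median -0.13, 42 of 46 below 0) and the small subunit (median -0.11, 28 of 30 below 0) gave much the same values. Of the 76 limma 95% intervals of these genes, 74 included 0. The intervals ran from -0.62 at the lowest bound to 0.44 at the highest, so the data for single genes do not exclude changes of that size. The core genes share libraries and scaling, and are not independent replicates of the comparison.

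**Figure D2:**
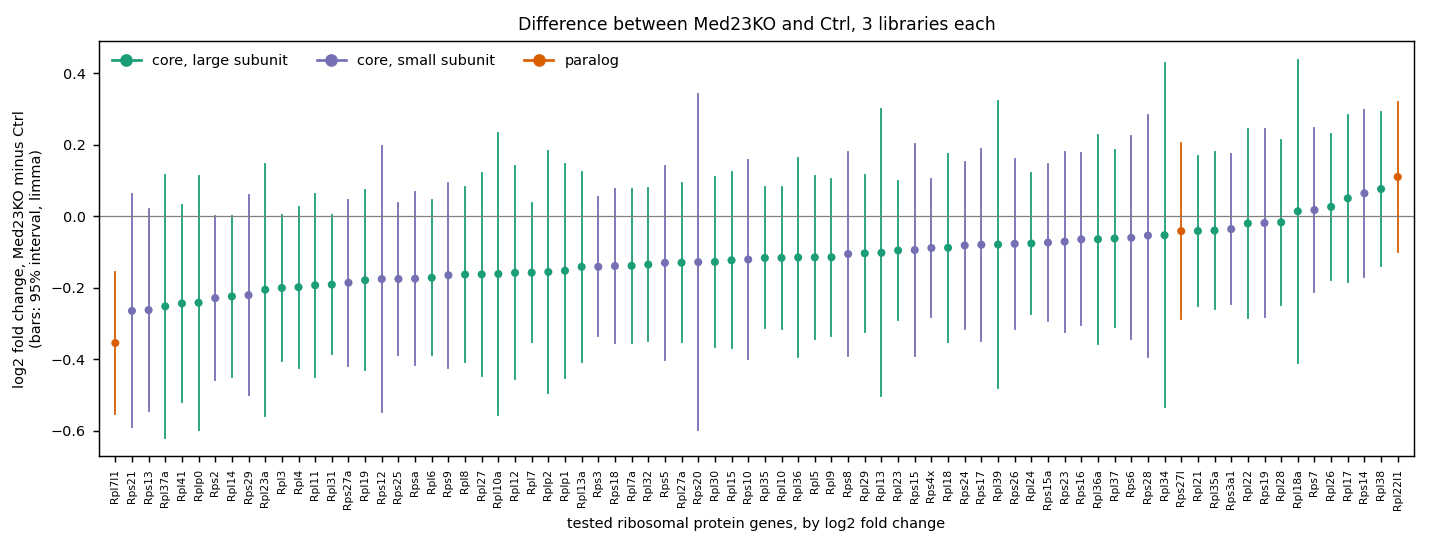
Log2 fold change, Med23KO minus Ctrl, on the log2(FPKM + 1) scale for 78 tested genes, with 95% limma intervals as bars and colours for large-subunit core genes, small-subunit core genes and paralogs (3 libraries per group). Values run from -0.35 for Rpl7l1 to 0.11 for Rpl22l1, and 76 of the 78 intervals include 0.

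In 17 of 79 members, 16 of them core genes (21.1% of 76), all 3 Med23KO values were below all 3 Ctrl values, against 14.7% of all tested genes. In 0 members were all 3 above, against 10% of all tested genes. Besides Rpl7l1 they included Rps2, Rps3, Rps4x, Rps18, Rps25, Rps27a, Rpl3, Rpl4, Rpl6, Rpl7, Rpl10, Rpl14, Rpl24, Rpl31 and Rpl35. Rps4x, the X-linked S4 protein of the small subunit, was at 1263, 1159 and 1189 FPKM in Ctrl and 1121, 1150.0 and 1122 in Med23KO (log2 fold change -0.09, a sign that turned under 3 of the scalings). Rps27a, which is made as a fusion with ubiquitin, was among the same 16 core genes, with 577 ± 50.8 FPKM in Ctrl and 506 ± 30.8 in Med23KO (SD, n = 3).

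Among the lowest fold changes of core genes were those of Rps21 and Rps13 of the small subunit and Rpl37a of the large subunit. Rps21 was at 982, 860 and 802 FPKM in Ctrl and 866, 720 and 625 in Med23KO, and its groups overlapped through Med23KO 1 (log2 fold change -0.27, SE 0.140). Rps13, a small-subunit protein at the interface with the large subunit, was at 661, 681 and 591 FPKM in Ctrl and 609, 544 and 464 in Med23KO (log2 fold change -0.26, SE 0.121). Rpl37a, a zinc-binding large-subunit protein, was at 858, 712 and 671 FPKM in Ctrl and 748, 629 and 515 in Med23KO (log2 fold change -0.25, SE 0.157). In Rpl37a as in Rps21, the range from the lowest to the highest library of a group was wider than the distance between the group means.

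The 4 highest core values were near 0. Rpl38, known for its part in the translation of Hox mRNAs, was at 1332, 1138 and 1198 FPKM in Ctrl and 1254, 1286 and 1319 in Med23KO (log2 fold change 0.08, SE 0.0929). Rps14, the small-subunit gene of the human 5q- syndrome, was at 1812, 1589.9 and 1549 FPKM in Ctrl and 1781, 1779 and 1609 in Med23KO (log2 fold change 0.06). Rpl17, which lies at the polypeptide exit tunnel, was at 820, 737 and 713 FPKM in Ctrl and 752, 856 and 744 in Med23KO (log2 fold change 0.05). Rpl26, another protein at that exit, was at 1699.7, 1568 and 1518 FPKM in Ctrl and 1580.3, 1630.3 and 1657 in Med23KO (log2 fold change 0.03). All 4 overlapped between the groups. The sign for Rpl17 turned without Med23KO 2 (-0.01), and that for Rpl26 without Ctrl 3 (-0.01).

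The stalk genes, like most core genes, had values below 0. Rplp0, the scaffold on which the stalk is built, was at 1650.2, 1454 and 1252 FPKM in Ctrl and 1375, 1306 and 1009.9 in Med23KO. The log2 fold changes were -0.24 for Rplp0, -0.15 for Rplp1 and -0.16 for Rplp2, with standard errors of 0.152, 0.128 and 0.145. Rplp2 was at 2134, 1971 and 1675 FPKM in Ctrl and 1914, 1854 and 1435 in Med23KO. Each of the 3 stalk genes was highest in Ctrl 1 and lowest in Med23KO 3. Under quantile normalization the value for Rplp1 turned to 0.09.

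Rpsa, the small-subunit protein also known as a laminin receptor, was at 932, 884 and 820 FPKM in Ctrl and 820, 823 and 696 in Med23KO (log2 fold change -0.17, SE 0.104). Rps6, the small-subunit protein phosphorylated by the S6 kinases downstream of mTORC1, had another order of libraries: 446, 403 and 522 FPKM in Ctrl and 397, 441 and 473 in Med23KO. Its log2 fold change was -0.06 (SE 0.122), a sign that turned under 4 of the alternatives on scaling or weighting and without either of 2 single libraries. Rps6 was highest in Ctrl 3, where most core genes were lower than in Ctrl 1.

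The libraries themselves differed by as much as the groups. Relative to the Ctrl mean of each gene, the median of the 76 core genes was 0.13, -0.04 and -0.09 on the log2 scale in Ctrl 1, 2 and 3, and -0.05, -0.07 and -0.24 in Med23KO 1, 2 and 3. For all tested genes the same medians were 0.03, 0.02 and -0.04 in Ctrl and 0.01, 0.01 and -0.10 in Med23KO. Thus 4 of the 6 libraries, Ctrl 2, Ctrl 3, Med23KO 1 and Med23KO 2, had core medians within -0.09 to -0.04, and the groups overlapped. Ctrl 1 held the highest of the 6 values for 61 of 76 core genes (80.3%, against 19.6% of all tested genes), and Med23KO 3 the lowest for 57 (75%, against 31.97%). Without Ctrl 1 the median core log2 fold change was -0.06 with 56 of 76 genes below 0, and without Med23KO 3 it was -0.08 with 58 below 0. With both kept and any other library left out it lay between -0.16 and -0.15.

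**Figure D3:**
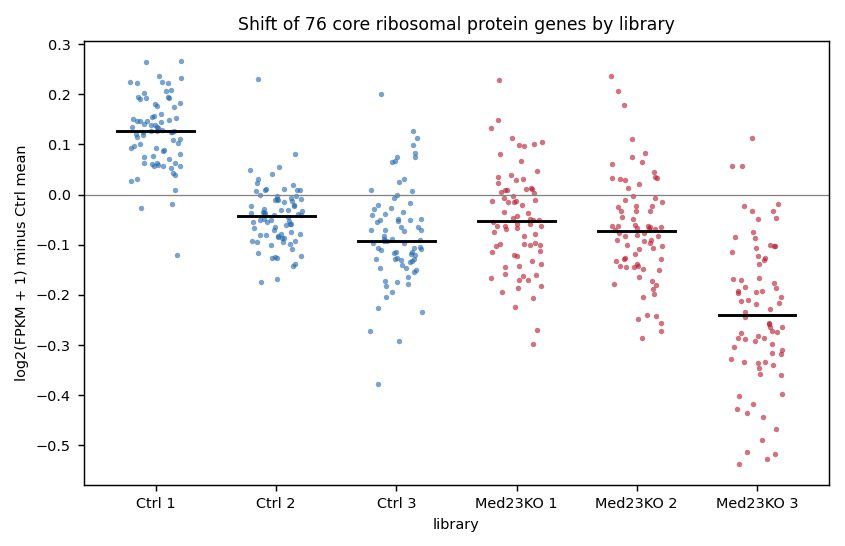
Difference of log2(FPKM + 1) from the gene's Ctrl mean for each of the 76 tested core genes (points) in each of the 6 libraries, with the median as a black bar. The medians are 0.13 in Ctrl 1 and -0.24 in Med23KO 3, and between -0.09 and -0.04 in the other 4 libraries.

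The direction of the shared difference also followed the scaling. The core median was -0.09 after median scaling and -0.02 after scaling to the FPKM sum without Rmrp, with 67 and 47 of 76 genes below 0. It turned to 0.02 under quantile normalization, with 32 of 76 below 0. Scaling each library to its median core gene, which sets that median near 0 by construction, moved the median of all tested genes from -0.03 to 0.08. Summed markers of differentiating muscle cells were higher in every Med23KO library than in any Ctrl library, as given above, and their part in these values was not tested. In bulk samples fewer cells of a type and less RNA per cell cannot be told apart.

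Across the 76 tested core genes the fold change bore little relation to coding length, GC content or mean level. As a description over genes that share the same 6 libraries, Pearson's r between the log2 fold change and coding length was -0.19 (Spearman's rho -0.17). With the GC content of the coding sequence it was -0.18 (rho -0.19), and with the mean level -0.13 (rho -0.07). Among tested core genes with a RefSeq window the median log2 fold change was -0.12 in the 12 with a TOP start at the annotated base and -0.12 in the 44 without. The 44 include genes such as Rps26 and Rpl27a, with a run at or near that base. This split therefore cannot separate TOP genes from others. The median was -0.12 in the 27 with a pyrimidine run near the start, such as Rplp2 and Rps6 shown above, and -0.11 in the 29 without. For CCGGAAG it was -0.13 in 24 genes with the sequence and -0.11 in 32 without. The 83 genes lie on 19 chromosomes, with at most 14 on one of them, chromosome 7.

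The paralogs fell into those that were expressed and those that were near 0. The striated-muscle paralog Rpl3l (chr17:24727820-24736143, plus strand, GENCODE vM21 on GRCm38) was listed at 0 in 5 libraries and at 0.0612 FPKM in Med23KO 3. Its partner Rpl3, a large-subunit protein near the peptidyl transferase centre, was at 750, 694 and 726 FPKM in Ctrl and 659, 641 and 588 in Med23KO (log2 fold change -0.20, SE 0.0875). The coding sequences of the pair are 73.4% identical, so they are told apart by sequence. Rpl10l was listed at 0 in all 6 libraries, while Rpl10 was at 1349.9, 1342 and 1271 FPKM in Ctrl and 1265, 1239 and 1152 in Med23KO. Rpl39l was at 0.503, 0.306 and 0 FPKM in Ctrl and 0.159, 0.530 and 0.627 in Med23KO, and Rpl39 at 1952, 1719.6 and 1352 in Ctrl and 1773, 1679.7 and 1292 in Med23KO. These 3 paralogs did not pass the filter and were not tested.

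Rpl22l1 exceeded its core partner. Rpl22l1 (chr3:28805436-28807424, plus strand) was at 199, 215 and 230 FPKM in Ctrl and 239, 225 and 230 in Med23KO, so the groups overlapped. Its FPKM was 2.51 to 3.37 times that of Rpl22 in the Ctrl libraries and 3.00 to 3.68 times in the Med23KO libraries. Log2 ratios of paralog to partner were taken on FPKM + 1. The log2 ratio of Rpl22l1 to Rpl22 was 1.57 ± 0.224 in Ctrl and 1.70 ± 0.150 in Med23KO (SD, n = 3). The difference of 0.13 was within the spread between libraries (two-sided exact permutation p = 0.5, adjusted p = 0.5 over the 2 pairs tested). Singly, Rpl22l1 had a log2 fold change of 0.11 (SE 0.0896, with a limma adjusted p of 0.567) and Rpl22 one of -0.02 (SE 0.113). The small difference for Rpl22 changed sign under 4 of the scaling alternatives. The 2 coding sequences are 70.0% identical.

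Rpl7l1 came closest to a change. Rpl7l1 (chr17:46773907-46782672, minus strand) was at 59.994, 61.6 and 59.1 FPKM in Ctrl and 44.4, 48.2 and 48.1 in Med23KO, all 3 Med23KO libraries lying below all 3 Ctrl libraries. The group values were 60.2 ± 1.23 and 46.9 ± 2.13 FPKM (SD, n = 3). Its log2 fold change of -0.35 (SE 0.0846) missed the threshold (limma adjusted p = 0.0715), and a two-sided exact permutation test of the gene alone gave p = 0.1, the smallest that 3 against 3 allows. Its partner Rpl7, a core protein of the large subunit, was at 1149, 1040 and 1123 FPKM in Ctrl and 980, 984 and 1001 in Med23KO (log2 fold change -0.16, SE 0.0834). The log2 ratio of Rpl7l1 to Rpl7 was -4.17 ± 0.1002 in Ctrl and -4.37 ± 0.0561 in Med23KO (SD, n = 3), a difference of -0.20 (two-sided exact permutation p = 0.1, adjusted p = 0.2 over the 2 pairs). With library weights estimated by limma, the adjusted p of Rpl7l1 was 0.0155. Those weights were 7.76 for Ctrl 2 and 0.404 to 1.11 for the other libraries. Over the other alternatives without a replicate term, the limma adjusted p of Rpl7l1 ran from 0.0541 to 0.345. The fit with a replicate term, which called it lower, is given below.

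Rps27l (chr9:66946086-66949516, plus strand) was at 330, 266 and 303 FPKM in Ctrl and 277, 309 and 286 in Med23KO (log2 fold change -0.04). The groups overlapped, and the sign turned under 3 of the scaling or weighting alternatives and without Ctrl 1. Its coding sequence is 73.4% identical to that of Rps27. No ratio to Rps27 was tested, since Rps27 did not pass the filter.

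**Figure D4:**
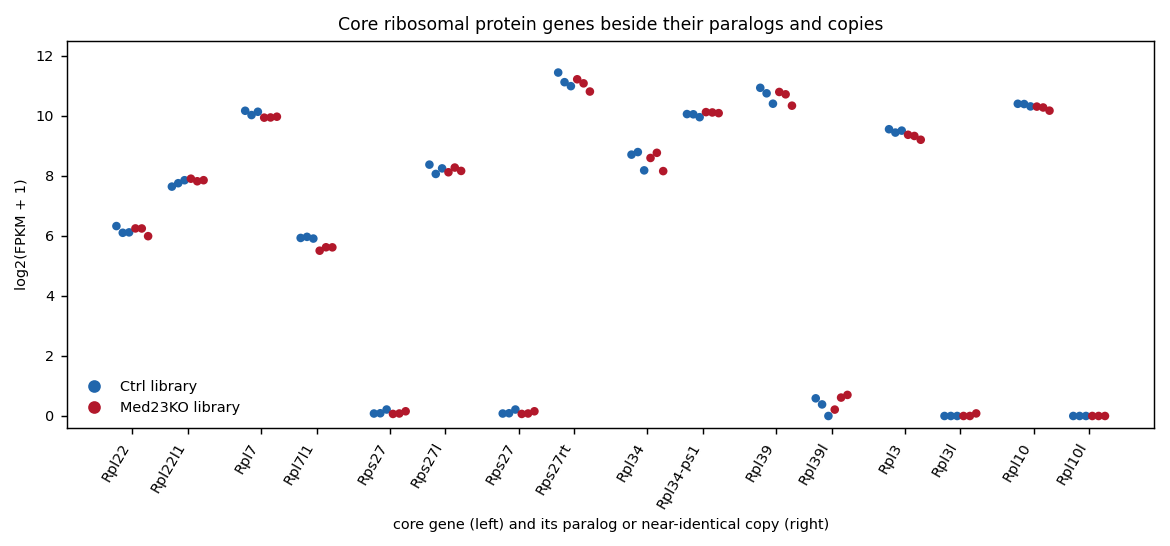
Log2(FPKM + 1) of each core gene (left of a pair) and its paralog or near-identical copy (right) in the 3 Ctrl libraries (blue) and 3 Med23KO libraries (red). Rpl22l1 lies above Rpl22, Rps27rt and Rpl34-ps1 lie above Rps27 and Rpl34, and Rpl3l, Rpl10l and Rpl39l lie near 0.

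Near-identical copies limit what a level means for some genes. Each coding sequence was searched against the GENCODE vM21 transcripts for copies of at least 95% identity over at least 90% of its length. Of the 83 genes, 73 had at least 1 such copy, with a median of 5, and the copies numbered 513 in all, 498 of them pseudogenes. Among the lowest core genes, Rpl21 had 56 such copies, 1 of them with a row, and Rps15a had 6, with 0 rows. Rpl7a, at 931 FPKM, had 30, with 0 rows. How reads shared with copies were counted was not given in the sources used here, so the levels of such genes are uncertain. Only 5 of the 513 copies have a row of their own in the table, Rps27rt, Rpl34-ps1, BC004004, Wdr89 and Rpl37rt. In 2 of the 5 pairs the copy was higher than the member.

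The first was Rps27, whose 252 coding bases are identical to those of the retrogene Rps27rt. Their first 60 coding bases, the same in both, are shown because a read from them cannot be assigned to either gene by sequence.
Rps27 and Rps27rt, coding bases 1 to 60: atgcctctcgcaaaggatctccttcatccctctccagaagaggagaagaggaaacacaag
Rps27rt (chr9:114982366-114982739, minus strand) was at 2778, 2223 and 2029 FPKM in Ctrl and 2378, 2164 and 1791 in Med23KO, while Rps27 (chr3:90212522-90213651, minus strand) was under 0.2 FPKM in every library. Their sum was 2343 ± 388 FPKM in Ctrl and 2111 ± 297 in Med23KO (SD, n = 3, log2 fold change -0.15, two-sided exact permutation p = 0.5). That sum, highest in Ctrl 1 and lowest in Med23KO 3, is close to the level of the most abundant core genes.

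The second was Rpl34 (chr3:130726831-130730398, minus strand), which was at 416, 442 and 289 FPKM in Ctrl and 386, 434 and 284 in Med23KO. Its copy Rpl34-ps1, with 99.4% identity, was at 1064, 1059 and 990.3 FPKM in Ctrl and 1113, 1105 and 1087 in Med23KO. Rpl34 was low in library 3 of both groups and took 20.7% to 29.4% of the sum of the pair. The sums were 1420 ± 122 and 1470 ± 87.4 FPKM (SD, n = 3, log2 fold change 0.05, two-sided exact permutation p = 0.6). The level of Rpl34 alone, and how it varied between libraries, is therefore uncertain.

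Other genes of the same system were read from lists of known members. The 4 ribosomal proteins whose symbols fall outside the rule lay with the core genes. They include Fau, made as a fusion with a ubiquitin-like protein, Rack1 (listed as Gnb2l1) and Rpl36al. All 4 had values below 0 (median log2 fold change -0.14), and 0 were called in either direction. Of all tested genes 54.9% were below 0 and 2.91% were called in either direction. Rack1, the scaffold protein on the head of the small subunit, was at 909 ± 100.0 FPKM in Ctrl and 825 ± 95.7 in Med23KO. Of 16 elongation and initiation factors and other genes with TOP mRNAs, 0 were called in either direction. Their median was -0.15 and 15 were below 0, beside the same 2.91% and 54.9% of all tested genes. Among the 16, Eef1a1, which delivers aminoacyl-tRNA to the ribosome, was at 3790 ± 139 and 3695 ± 247 FPKM (SD, n = 3).

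Of the 17 genes of the mTORC1 pathway and of TOP mRNA control, 0 were called in either direction. Their median was -0.12 and 12 were below 0, where 2.91% of all tested genes were called and 54.9% were below 0. Larp1, which binds the TOP start itself, was at 58.5, 55.7 and 50.4 FPKM in Ctrl and 47.8, 48.6 and 41.3 in Med23KO, and its groups did not overlap (log2 fold change -0.25, SE 0.106), with a limma adjusted p of 0.244. Rptor, the mTORC1 scaffold, was at 23.4 ± 3.08 and 17.8 ± 2.22 FPKM (limma adjusted p = 0.193).

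Among 9 noncoding host genes of small nucleolar RNAs, several of which have TOP transcripts, 1 was lower and 0 higher, the median was -0.51 and 9 of 9 were below 0, where 1.42% of all tested genes were called lower and 54.9% were below 0. Snhg3 was at 149, 127 and 129 FPKM in Ctrl and 68.2, 81.0 and 84.5 in Med23KO, and fell by 0.79 on the log2 scale (SE 0.116, limma adjusted p = 0.0217). With any library but Med23KO 3 left out the limma adjusted p of Snhg3 was 0.0635 to 0.128. Of the 9 chaperones and importers that escort ribosomal proteins to the nucleus, 1 was lower and 0 higher, the median was -0.26 and 9 of 9 were below 0, beside the same 1.42% and 54.9% of all tested genes. Grwd1, the chaperone of Rpl3, was at 30.6, 32.1 and 27.9 FPKM in Ctrl and 21.97, 20.2 and 20.9 in Med23KO, and fell by 0.50 (SE 0.0968, limma adjusted p = 0.0419). The call for Grwd1 was lost with any library but Med23KO 3 left out (limma adjusted p = 0.0847 to 0.210), without the filter (0.0607), and under scaling to the FPKM sum without Rmrp (0.0597) or to the median core gene (0.111). Ipo7, an importer of ribosomal proteins, was at 170 ± 19.9 and 131 ± 19.2 FPKM (limma adjusted p = 0.182). The limma adjusted p of Ipo7 was 0.0495 without Med23KO 3 and 0.222 to 0.443 with any other library left out. The medians of these last lists lay below that of the core genes, and the difference between lists was not tested.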

How the data were processed

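RNA-seq of 6 libraries was used, from poly(A) RNA made into strand-specific libraries per the labels' protocols. The authors deposited 1 table of FPKM values per library; the submitters' processing notes name FastQC, cutadapt, STAR, Cuffdiff and the mm10 build, while the tool versions, the annotation and the strand setting of the counting were not given in the sources used here. The same deposited table holds the authors' p-values and q-values and a test score from Cuffdiff; the q-values were used as a comparison, and the score was not used. FPKM values are not counts and read depth is not given, so no count test or counting interval was computed; the number of libraries limits the precision. The FPKM scaling makes each value relative to the rest of its library. FPKM sums, the largest single RNA and the marker lists are given in the report.

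Log2(FPKM + 1) was fitted with limma 3.58.1 (R 4.3.3, mean-variance trend, genotype only, two-sided) over the 12336 genes averaging 1 FPKM or more, with Benjamini-Hochberg adjustment over all of them and a threshold of 0.05. The fit was tested on simulated data, where it recovered 95% of 4-fold, 73% of 2-fold and 0% of 1.5-fold changes. Ratios and sums of single genes were compared by exact permutation tests over the libraries (scipy 1.17.1), which cannot go below 0.1 with 3 against 3. Copies were found with blastn 2.17.0 and paralogs aligned with MAFFT 7.526. Promoter windows came from RefSeq (GRCm38.p6).

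The genes, lists and alternatives were chosen with earlier results of these data known. Named genes were, by rule, every paralog with its partner, every gene called, the 4 highest and 4 lowest core genes by fold change and by level, the stalk proteins, Rpsa and Rps6, and up to 3 genes with the lowest adjusted p of each other list; Eef1a1, Rack1, Rps4x and Rps27a were added after their values were seen. Rps4l was not analysed here, and some genes are not reported by name or drawn by name. Alternatives were the pseudocount (0.1), the filter (none, or a mean of 5), 4 scalings, robust variance, library weights, a replicate term, the authors' q-values and fits that omit 1 library each.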

Additional observations from a re-analysis of the deposited data

How the results depend on the processing

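Under the pseudocount of 0.1, both other filters, all 4 scalings, robust variance, each library left out and the authors' q-values, 0 ribosomal protein genes were called in either direction. Library weights called 1 lower (Rpl7l1), and a replicate term called 11 lower, beside 850 and 1577 of all 12336 tested genes. Over all tested genes 184 were called higher and 175 lower. The higher and lower counts were 73 and 84 without a filter, 850 and 850 with library weights, and 1130 and 924 by the authors' q-values. Calls higher numbered 298 under quantile normalization, 351 under median scaling, 489 under scaling to the FPKM sum without Rmrp and 525 under scaling to the median core gene. Leaving out 1 library gave 3 to 749 higher and 10 to 395 lower; the highest of both came without Med23KO 3, and every other library left out brought the counts to 47 or fewer higher and 46 or fewer lower. The cause of these differences was not tested. The core median of -0.12 turned to 0.0172 under quantile normalization and to 0.000195 under scaling to the median core gene, the latter by construction.

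Single genes with values near 0 changed sign. Under quantile normalization the log2 fold change was above 0, at 0.0236 for Rpl10, 0.0384 for Rpl22, 0.0701 for Rpl39, 0.0177 for Rps4x, 0.0929 for Rplp1, 0.115 for Rps26, 0.0138 for Rpl21 and 0.0366 for Rps6. Under scaling to the FPKM sum without Rmrp the log2 fold change was above 0, at 0.0557 for Rps27l, 0.0761 for Rpl22, 0.0183 for Rpl39, 0.00883 for Rps4x, 0.0204 for Rps26, 0.0559 for Rpl21, 0.0227 for Rps15a, 0.0372 for Rps6 and 0.0442 for Rpl34. Under scaling to the median core gene the log2 fold change was above 0, at 0.0807 for Rps27l, 0.00607 for Rpl10, 0.101 for Rpl22, 0.0434 for Rpl39, 0.0339 for Rps4x, 0.0454 for Rps26, 0.0808 for Rpl21, 0.0474 for Rps15a, 0.0622 for Rps6 and 0.0692 for Rpl34. Under library weights the log2 fold change was above 0, at 0.0641 for Rps27l, 0.0742 for Rpl22, 0.0293 for Rps26, 0.0544 for Rpl21 and 0.0246 for Rps6. Under median scaling the log2 fold change was above 0, at 0.00672 for Rpl22. With 1 library left out it ran from -0.124 to 0.0308 for Rps27l, -0.0636 to 0.0654 for Rpl22, -0.225 to 0.0597 for Rpl39, -0.00912 to 0.0725 for Rpl26, -0.0149 to 0.109 for Rpl17, -0.148 to 0.0397 for Rps6 and -0.242 to 0.121 for Rpl34. None of these genes passed the threshold in any fit.

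With the replicate number as a block, 1180 of the 12336 tested genes were called higher and 1577 lower. Of the 79 tested ribosomal protein genes 0 were called higher and 11 lower, a share near that of all tested genes called lower. Among the 11 were Rpl7l1, Rps21, Rps13, Rpl37a, Rpl41, Rplp0, Rps2, Rps29, Rpl11 and Rpl31. Libraries with the same number share only that number in the labels; over all 12336 genes their deviations from the group means correlated at 0.44, -0.016 and 0.56 for numbers 1, 2 and 3, and not every library correlated best with its own number, so the numbers were not taken to pair the samples. Over the 76 core genes alone the correlations were 0.68, 0.55 and 0.87, and every library correlated best with its own number, a hint from the data and not from the design.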

Other observations

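Core ribosomal protein genes varied between libraries of the same group in a pattern that recurred in both groups. Of the 76 tested core genes, 68 were lower in Ctrl 3 than in Ctrl 1, 62 were lower in Med23KO 3 than in Med23KO 1, and 60 were lower in both, while 6 were higher in both. Rpl39 differed by -0.53 (Ctrl 3 minus Ctrl 1) and -0.46 (Med23KO 3 minus Med23KO 1) on the log2 scale, Rpl34 by -0.52 and -0.44, and Rpl13 by -0.50 and -0.50. In the other direction Rpl15 differed by 0.23 and 0.25, Rps6 by 0.23 and 0.25, and Rpl5, which carries the 5S RNA into the large subunit with Rpl11, by 0.14 and 0.17. Across the 76 genes, which share the libraries, these differences had a Pearson's r with the GC content of the coding sequence of -0.38 in Ctrl and -0.34 in Med23KO (Spearman's rho -0.43 and -0.42). No cause of the pattern was tested.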
